A study of Mus musculus with 6 samples.

Results

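The proteasome genes of regulatory T cells (Tregs, a CD4 lineage that depends on FOXP3 and holds immune responses in check) were examined with and without a floxed Junb allele. Single genes were picked by symbol, and the set itself was chosen with earlier results of these data known. A gene counted if it is protein-coding in GENCODE M21 and its symbol starts with Psma, Psmb, Psmc, Psmd, Psme, Psmf or Psmg and a number. The interferon-inducible catalytic subunits Psmb8, Psmb9 and Psmb10 were left out. The rule gave 47 of the 53379 gene identifiers in the files. RNA was sequenced from 6 libraries of sorted Tregs of C57BL/6 mice aged 3 months. The 3 WT libraries were labelled Foxp3YFP-CrexJunb+/+ and the 3 bKO libraries Foxp3YFP-CrexJunbFlox/Flox, so both genotypes carried the Foxp3-driven Cre allele with its YFP reporter. Cre is thus under the control of Foxp3. The tissue and the markers of the sort are not stated in the labels, nor whether each library stands for 1 animal. The p-values therefore rest on library-to-library spread, some of which may be technical.

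The proteasome degrades proteins that carry ubiquitin chains. Its 20S core is a barrel of alpha rings, which gate the entrance, and beta rings, which hold the active sites. The 19S particle caps the barrel. Its ATPase ring, encoded by Psmc genes, unfolds substrates, and its other subunits, encoded by Psmd genes, bind and remove ubiquitin. Psme genes encode activators that cap the barrel without using ubiquitin, Psmf1 encodes a protein first described as an inhibitor, and Psmg genes encode chaperones that build the core. In T cells proteasomes supply peptides for MHC class I and degrade inhibitors of NF-kappaB. JunB pairs with other basic leucine zipper proteins to form AP-1.

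By role, the 47 genes were 8 alpha genes, 8 beta genes, 6 ATPase genes, 11 non-ATPase genes of the 19S particle, 7 assembly factors, 5 activators and 1 inhibitor. The last gene, Psmc3ip, matches the symbol pattern but encodes a factor of meiotic recombination and no proteasome subunit, so it is described apart. In all, 46 of the 47 had enough counts to be tested. The exception was Psmb11, the thymus-specific beta subunit, with at most 2 counts in any library.

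Promoter sequences of RefSeq (GRCm38.p6, 250 bases before to 50 bases after the annotated start) were matched for 39 of the 47 genes. The windows of Psma8, Psmb1, Psmb2, Psmb7, Psmc3, Psmd3, Psmd7 and Psmg2 were not matched. Motifs were searched on both strands by exact letters. Of the 5 motifs searched, the one most in excess of its share in all genes was the ETS site CCGGAAG, present in 15 of the 39 genes (38.5%) and in 9.93% of all 27025 genes with a window. The GC box GGGCGG was present in 22 of the 39 (56.4%) against 38.2% of all genes, and the CCAAT box CCAAT in 14 (35.9%) against 41.1%. Base composition differed too, with a median GC content before the start of 57.6% over the 42 windows of these genes and 52.4% over all 32851 windows. The part of GC content in the ETS and GC box shares was not tested. The 15 genes held 20 ETS sites, of which 15 lay within 100 bases upstream of the start. They include 9 of the 17 genes of the 19S particle, and a site of each of these 9 is shown. Capitals mark the site, and each line reads 5′ to 3′ on the strand that carries CCGGAAG.
Psmc1, chr12:100110165-100110189: tcgccaccgCCGGAAGtgcatccac
Psmc2, chr5:21786714-21786738: tcttccccaCCGGAAGtagctccgc
Psmc6, chr14:45329715-45329739: gcgggccagCCGGAAGgggcggagc
Psmd2, chr16:20651617-20651641: tcctccagaCCGGAAGcgccctgcg
Psmd4, chr3:95042724-95042748: acagctgttCCGGAAGctgctgcga
Psmd6, chr14:14120975-14120999: gagacgcgaCCGGAAGtcagactgg
Psmd11, chr11:80428595-80428619: aacacacacCCGGAAGacccgccct
Psmd12, chr11:107479502-107479526: tcactcgcaCCGGAAGtcgcccgct
Psmd13, chr7:140882379-140882403: cccgcggtgCCGGAAGtgagcgagc

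NRF1, encoded by Nfe2l1, is known to raise proteasome genes through the antioxidant response element. The letters TGACNNNGC of that element were present in 6 of the 39 genes (15.4%) and in 14% of all genes with a window. The AP-1 site TGANTCA, to which JunB can bind as part of AP-1, was present in Psmb5 and Psmd9 only (5.13%, against 8.97% of all genes). TGACNNNGC contains an AP-1 site where its free letters read TCA, and none of the 6 did. The 6 matches are shown with TGACNNNGC in capitals and 5′ to 3′ on its own strand. Their share was close to that of all genes, and binding of NRF1 to them was not tested.
Psmb5, chr14:54618025-54618051: gtgaagttgTGACGTCGCggcgttgcc
Psmb6, chr11:70525339-70525365: taaagagagTGACGGAGCgctttacga
Psmc6, chr14:45329588-45329614: agcaatgccTGACTTAGCtactggctg
Psmd9, chr5:123228150-123228176: tctagccggTGACCCCGCccacttcca
Psmd12, chr11:107479278-107479298: gggcaaatgTGACACAGCaga
Psme4, chr11:30771759-30771785: ctcttctggTGACGCTGCagccgcagc

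Library totals lay between 33784183 and 41231173 counts, and levels are given as CPM, counts scaled to a common library size (TMM). The targeted gene, Junb, had 87.1, 77.5 and 89.5 CPM in the WT libraries and 57.1, 57.3 and 49.6 CPM in the bKO libraries, each in the order of replicates 1 to 3, as for all values by library. No bKO library reached the lowest WT library. An exact permutation test, two-sided, gave p = 0.1, and no smaller value is possible with 3 libraries a genotype. The 4 Treg markers checked (Foxp3, Il2ra, Ctla4 and Ikzf2) were present in all libraries, with a sum of 773 to 870 CPM in WT and 336 to 823 CPM in bKO. The 3 general T cell markers summed to 1110 to 2100 and 938 to 1490 CPM. Markers of other cells were present as well. The 4 B cell markers summed to 99.5 to 872 CPM in WT and 411 to 592 CPM in bKO, the 4 myeloid markers to 62.6 to 639 and 288 to 746 CPM, the 4 CD8 T and NK markers to 19.9 to 57.0 and 32.5 to 39.7 CPM, and the 4 globin genes to 103 to 2740 and 76.7 to 7600 CPM. The 4 pancreatic acinar markers summed to 2.06 to 4.61 and 0.954 to 19 CPM. Cd14, Cpa1 and Pnlip were at 0 in at least 1 library. The names of the deposited tables carry one of 2 numbers, and libraries are called set A (WT replicates 1 and 2, bKO replicate 2) or set B (WT replicate 3, bKO replicates 1 and 3) by it.

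Messenger RNA of the proteasome genes made up nearly the same share of every library. Their summed level was 4380, 4275 and 4701 CPM in WT and 4272, 4283 and 4308 CPM in bKO. WT replicate 3 was the highest and the other libraries of both genotypes lay within a narrow band, so the genotypes overlapped. Averaged by genotype the sum was 4452 ± 222 CPM in WT and 4288 ± 18.6 CPM in bKO (SD, n = 3, as for all means given). The 14 core genes Psma1 to Psma7 and Psmb1 to Psmb7 summed to 1758 ± 162 CPM in WT and 1719 ± 39.1 CPM in bKO. The 17 genes of the 19S particle summed to 1508 ± 47.7 and 1453 ± 79.2 CPM, and the 7 assembly factors to 188.5 ± 10.8 and 187 ± 19.1 CPM. In bulk RNA, fewer cells of a type and less RNA per cell cannot be told apart.

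The comparison of bKO with WT asked whether any single proteasome gene differed. By edgeR's quasi-likelihood test, with p-values adjusted by Benjamini-Hochberg over all 20475 genes tested, 0 of the 46 passed 0.05 (smallest adjusted p = 0.9999), and 0 of all genes passed (0.0%). At an unadjusted p under 0.05 there were 3 of the 46, or 6.52%, against 2.88% of all genes: Psma4 and Psmd3 with lower means in bKO (1.48% of all genes) and Psmd12 with a higher mean (1.4% of all genes). Limma-voom gave 2 of the 46 at that level (Psma4 and Psmd3, both lower, against 3.66% of all genes, 1.78% lower and 1.88% higher) and 0 after adjustment. DESeq2 gave the same 3 genes unadjusted, where 3.67% of all genes passed. After adjustment DESeq2 called 0 of the 46 (smallest adjusted p = 0.753) and 0.272% of all genes. The count depended on single libraries. It was 0 when WT replicate 3 was left out (3.49% of all genes passed in that fit) or bKO replicate 3 (3.86%). A term for the replicate number also made it 0, with 3.48% of all genes. Without WT replicate 2 it was 1 (Psmd3, 5.25%). Without bKO replicate 2 it was 1 as well, but that gene was Psmc3 (3.19%). It was 2 without WT replicate 1 (Psma4 and the scarcely detected Psma8, 2.59%) and 2 without bKO replicate 1 (Psmd12 and Psmd3, 3.15%). A term for the set kept all 3 genes (4.56%). The share of all genes was above 2.88% in each of these fits except that without WT replicate 1.

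As a group the differences were small. Of the 46, 17 had a higher and 29 a lower mean in bKO, or 37.0% higher, where 50.9% of all genes were higher. The median log2 difference was -0.03, and over all genes it was 0.005. The median size of the difference, in either direction, was 0.102 on the log2 scale against 0.213 over all genes, and 2 of the 46 (4.35%) exceeded 0.5 against 23.0% of all genes. Many of all genes were less abundant than the proteasome genes. Over the 10203 genes with a mean of at least 10 CPM, a limit added after seeing the data, the median size was 0.132 and 6.83% exceeded 0.5.

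The intervals show how large a change these libraries leave room for. For 43 of the 45 genes with a WT mean of at least 10 CPM, the 95% interval of the difference lay between -1 and 1 on the log2 scale. For 35 of the 45 it lay within 1.5-fold either way. The exceptions to the wider limit were Psmd3, whose interval reached -1.01, and Psmd9, whose interval reached 1.04. By role, the median SE ran from 0.116 for alpha genes to 0.272 for assembly factors, which the plot of differences shows as wider lines.

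**Figure D1:**
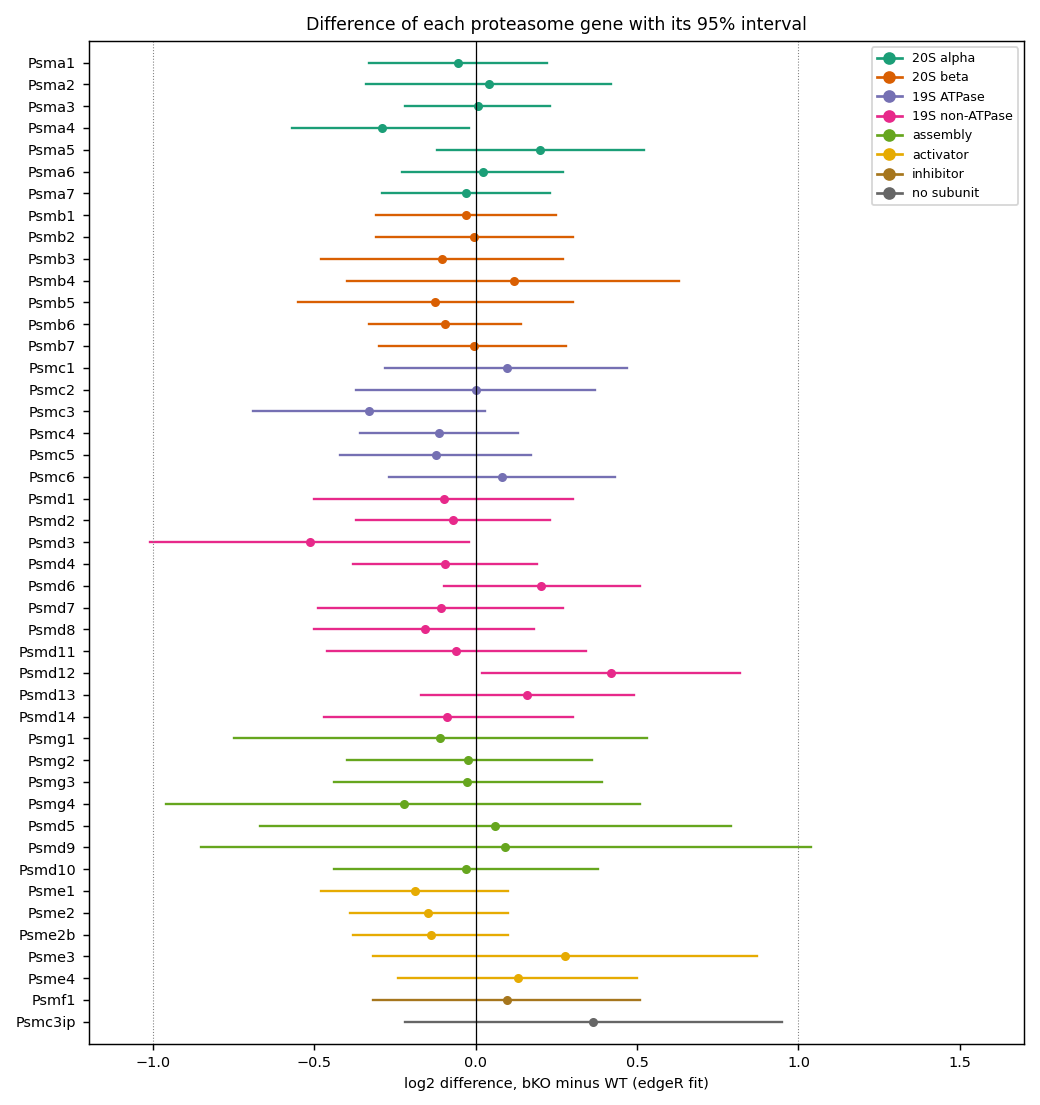
Log2 difference of bKO minus WT (points) with its 95% interval (lines) from the edgeR fit for 45 tested genes, coloured by role, with dotted lines at -1 and 1. Psma8 is left out, since its interval runs from -3.30 to 5.23. The intervals of Psma4 and Psmd3 lie below 0 and that of Psmd12 above 0, each before adjustment for the number of genes tested.

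The 3 genes with the smallest p had these values. Psma4 (ENSMUSG00000032301.13, GRCm38 chr9:54950790-54958030), an alpha-ring subunit, stood at 97.0, 110.5 and 115 CPM in WT and at 85.0, 90.3 and 88.3 CPM in bKO. Every bKO library lay below every WT library. On the log2 scale bKO minus WT was -0.29 (SE 0.116, 95% interval -0.57 to -0.02, unadjusted p = 0.0397, adjusted p = 0.9999 by edgeR), a fold of 0.817. It was -0.20 within set A and -0.41 within set B. Of the 50-base stretches in Psma4 transcripts 14.3% also occur in another gene, mostly the processed pseudogene Gm6542, so its reads could be shared. Gm6542 averaged 54.8 CPM in WT and 44.2 CPM in bKO, and was thus lower in bKO as well. How far reads of Psma4 and Gm6542 were shared was not tested. The stretch upstream of the Psma4 gene is shown because Psma4 had the smallest p. It covers chr9:54950609-54950789 on the plus strand, ends before the first base that GENCODE M21 gives to the gene, and holds 4 GC boxes in capitals, read on the other strand, with neither an AP-1 site nor an antioxidant response element.
Psma4 upstream: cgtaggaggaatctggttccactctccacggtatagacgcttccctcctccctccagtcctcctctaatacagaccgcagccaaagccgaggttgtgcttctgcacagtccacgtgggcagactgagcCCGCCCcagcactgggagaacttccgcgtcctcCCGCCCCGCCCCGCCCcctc

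Psmd3 (ENSMUSG00000017221.14, chr11:98682554-98695979), a scaffold subunit of the 19S lid, stood at 42.6, 37.85 and 48.2 CPM in WT and at 37.65, 28.6 and 23.8 CPM in bKO. The highest bKO value was just under the lowest WT value. Its log2 difference was -0.51 (SE 0.209, unadjusted p = 0.0438, adjusted p = 0.9999 by edgeR), a fold of 0.700, and it was -0.49 within set A and -0.65 within set B. Psmd12 (ENSMUSG00000020720.13, chr11:107479484-107504362), another lid subunit, moved the other way, at 59.3, 56.1 and 49.4 CPM in WT and 58.6, 83.3 and 78.2 CPM in bKO. bKO replicate 1 lay within the WT range and the other bKO libraries above it. The log2 difference of Psmd12 was 0.42 (SE 0.169, unadjusted p = 0.0432, adjusted p = 0.9999 by edgeR), a fold of 1.34, with 0.53 within set A and 0.47 within set B. Psmd3 and Psmd12 thus had differences of opposite sign, although both encode subunits of the lid. The Psmd12 promoter holds the TGACNNNGC match and the ETS site given above. The stretch upstream of it (chr11:107479278-107479483, plus strand) is shown for comparison with that of Psma4. It has the TGACNNNGC match, here read on the other strand, and 2 GC boxes in capitals.
Psmd12 upstream: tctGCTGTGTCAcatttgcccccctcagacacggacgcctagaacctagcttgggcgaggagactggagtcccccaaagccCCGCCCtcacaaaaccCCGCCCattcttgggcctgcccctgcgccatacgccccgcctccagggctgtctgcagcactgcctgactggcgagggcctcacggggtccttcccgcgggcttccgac

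WT and bKO libraries did not overlap for 6 of the 46 genes, or 13.0%, against 7.76% of all genes. They were lower in bKO for Psma4, Psmd3, Psmb6 and Psmc4 (4.07% of all genes were) and higher for Psmd6 and Psmc3ip (3.68% of all genes). Without Psmc3ip, which is no subunit, and the retrocopy Psme2b, the count was 5 of 44 (11.4%). With 1 library left out, fewer libraries have to be separated and the count was between 8 and 15. Leaving out WT replicate 1 gave 11 (14.6% of all genes), WT replicate 2 gave 14 (19.4%) and bKO replicate 3 gave 15 (17.9%). Without WT replicate 3 it was 9 (18.2%), without bKO replicate 1 it was 8 (16.5%) and without bKO replicate 2 it was 9 (16.8%). The plot of levels by library shows how close to each other most of these values lie.

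**Figure D2:**
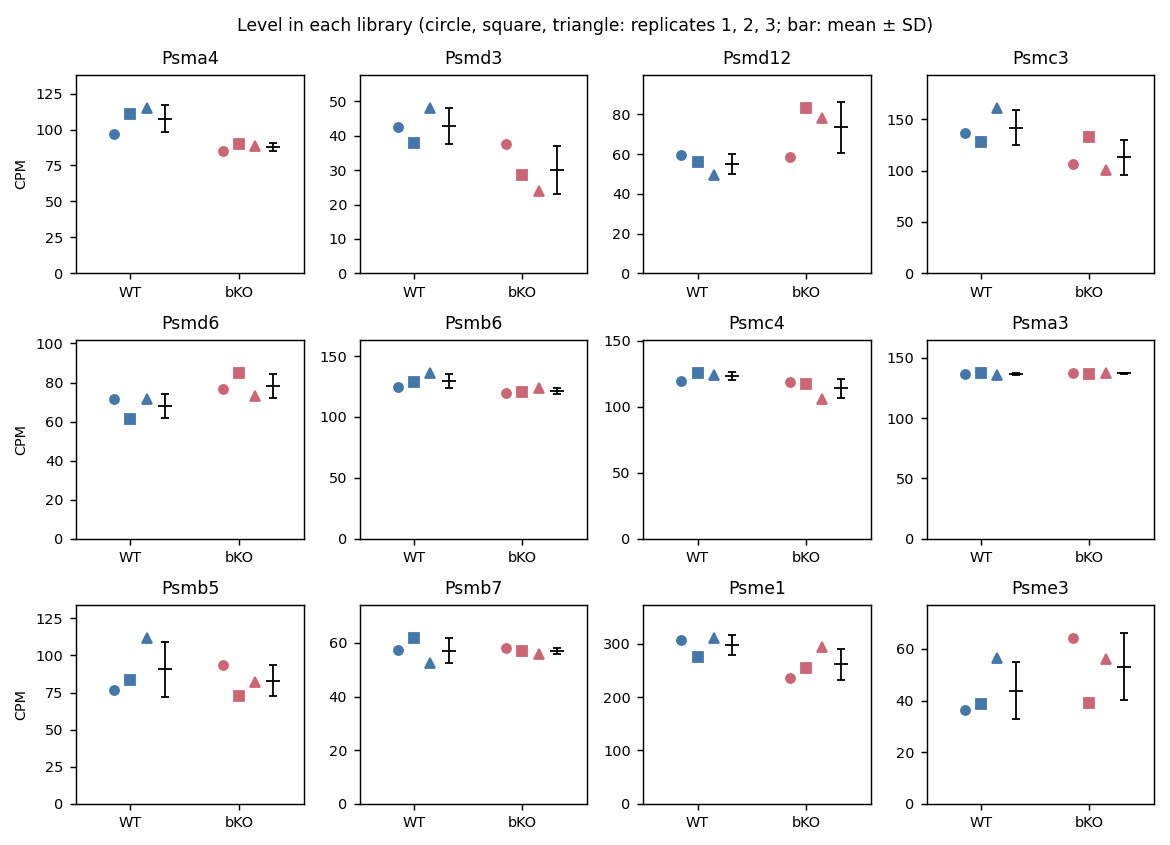
CPM in each library for 12 proteasome genes, with WT in blue, bKO in red, a marker shape for each replicate number, and bars for mean ± SD (n = 3). Psma4, Psmd3, Psmb6 and Psmc4 show no overlap with lower bKO values, Psmd6 no overlap with higher ones, and Psma3 lies between 135.9 and 137.6 CPM in every library.

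The 20S core. Among the 8 alpha genes 5 had a higher and 3 a lower mean in bKO, with a median log2 difference of 0.015. Psma3 was the least variable, at 136.8, 137.3 and 135.9 CPM in WT and 137.6, 137.0 and 137.6 CPM in bKO. Its log2 difference was 0.01 (95% interval -0.22 to 0.23), although 15.4% of its 50-base stretches occur in other genes, mostly the pseudogene Gm13835. Psma8, which replaces Psma7 in male germ cells, was near the limit of detection: WT replicates 2 and 3 had 0 CPM, WT replicate 1 had 0.578 CPM, and the bKO libraries had 0.477, 0.628 and 0.0269 CPM. Of the 7 beta genes tested 1 had a higher and 6 a lower mean, with differences between -0.13 and 0.12.

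Psmb5, Psmb6 and Psmb7 carry the active sites of the constitutive core, for chymotrypsin-like, caspase-like and trypsin-like cleavage in that order. Psmb5 stood at 76.4, 83.7 and 112 CPM in WT and at 93.7, 73.0 and 82.4 CPM in bKO, with overlap, and 54.1% of its 50-base stretches also occur in other genes, mostly the pseudogene Gm3375. Psmb6 (ENSMUSG00000018286.6, chr11:70525367-70527858) stood at 125, 128 and 136 CPM in WT and at 119.6, 121 and 124 CPM in bKO. Its libraries did not overlap, yet the gap was small beside the fitted error (log2 difference -0.10, SE 0.101, unadjusted p = 0.370 by edgeR). Psmb7 stood at 57.3, 61.8 and 52.3 CPM in WT and at 58.0, 56.95 and 55.7 CPM in bKO, and its bKO libraries lay inside the WT range. The 95% intervals of the 3 log2 differences were -0.55 to 0.30, -0.33 to 0.14 and -0.30 to 0.28. The immunoproteasome counterparts Psmb8, Psmb9 and Psmb10 summed to 894 ± 26.4 CPM in WT and 815 ± 67.5 CPM in bKO with overlap, and only Psmb9 among them had no overlap (183 ± 15.7 and 160 ± 4.33 CPM, unadjusted p = 0.114 by edgeR). Levels per length were taken in TPM, which divide counts by exon length and then scale every library to the same total. The immunoproteasome sum was 1.71 ± 0.216 times that of Psmb5, Psmb6 and Psmb7 in WT and 1.66 ± 0.200 times in bKO. With the length of the principal transcript, a setting added after seeing the data, it was 1.93 ± 0.197 times in WT and 1.86 ± 0.187 times in bKO.

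The 19S particle. Of the 6 ATPase genes 2 had a higher and 4 a lower mean in bKO, with a median log2 difference of -0.06. Psmc3 had the largest of these differences, at 137, 128 and 161 CPM in WT and 106, 132 and 100.1 CPM in bKO. bKO replicate 2 lay above WT replicate 2, so the genotypes overlapped (log2 difference -0.33, SE 0.154, unadjusted p = 0.0693 by edgeR). The difference was 0.00 within set A and -0.64 within set B. Psmc4 stood at 119.9, 126 and 124 CPM in WT and at 119, 118 and 106 CPM in bKO, without overlap but with a log2 difference of only -0.11 (SE 0.105). Of the 11 non-ATPase genes 3 had a higher and 8 a lower mean, with a median of -0.09. Besides Psmd3, Psmd6 was without overlap, at 71.6, 61.1 and 71.3 CPM in WT and 76.9, 84.9 and 72.9 CPM in bKO (log2 difference 0.20, SE 0.129). The other 8 non-ATPase genes, among them the ubiquitin receptor Psmd4, the large scaffold subunits Psmd1 and Psmd2 and the deubiquitinase Psmd14, overlapped between genotypes, with log2 differences between -0.16 for Psmd8 and 0.16 for Psmd13.

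Assembly factors, activators and inhibitor. Of the 7 assembly factors 2 had a higher and 5 a lower mean, and none was without overlap. They were the most variable group between libraries. Psmd9, a chaperone of the ATPase ring, stood at 16.7, 18.3 and 26.5 CPM in WT and at 33.4, 11.5 and 20.6 CPM in bKO, and part of its exons also lies in exons of the antisense gene Gm26745. Psmd5, another such chaperone, stood at 52.2, 58.4 and 32.6 CPM in WT and at 54.3, 62.8 and 32.1 CPM in bKO. Its replicate 3 was the lowest in both genotypes.

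Psme1 and Psme2 encode the subunits of the interferon-inducible PA28 activator. Psme1 stood at 307.5, 275.5 and 310.7 CPM in WT and at 236, 255 and 294 CPM in bKO. Psme2 stood at 228, 212 and 222 CPM in WT and at 195, 189.6 and 214 CPM in bKO. In both genes 2 bKO libraries lay below the WT range and bKO replicate 3 inside it (log2 differences -0.19, SE 0.123, and -0.15, SE 0.104). Psme2b, a copy of Psme2 elsewhere in the genome, shares 69.3% of its 50-base stretches with other genes. It stood at 346, 323 and 344 CPM in WT and 304, 288 and 326 CPM in bKO, and its level cannot be separated from that of Psme2. Psme3, the nuclear activator PA28 gamma, stood at 36.3, 38.7 and 56.7 CPM in WT and at 64.2, 39.0 and 56.2 CPM in bKO. Psme4, the large PA200 activator, stood at 36.8, 37.8 and 33.2 CPM in WT and at 43.7, 40.5 and 33.85 CPM in bKO. Psmf1 stood at 58.0, 48.4 and 44.0 CPM in WT and at 59.2, 44.4 and 57.1 CPM in bKO. All of these overlapped between genotypes, and the 95% intervals of the log2 differences were -0.32 to 0.87 for Psme3, -0.24 to 0.50 for Psme4 and -0.32 to 0.51 for Psmf1. Psmc3ip, the recombination factor caught by the symbol rule, stood at 12.9, 8.97 and 14.5 CPM in WT and at 16.1, 15.8 and 14.8 CPM in bKO (log2 difference 0.36, SE 0.248, unadjusted p = 0.187 by edgeR), and part of its exons also lies in exons of Mlx. In all, 13 of the 47 genes share exonic bases with another gene, and 11 share over 10% of their 50-base stretches with other genes.

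Per length, the subunits of 1 complex were far from equal in WT. On TPM over the union of annotated exons, the 3 highest were Psme2b at 431 ± 23.0 TPM, Psme1 at 144 ± 8.19 TPM and Psme2 at 134 ± 8.43 TPM. With this length Psme1 and Psme2 differed by less than 2 SD, and Psme2b carries the limit given above. The tested core genes other than Psma8 followed between 123 TPM for Psmb2 and 17.9 TPM for Psmb7, the ATPase genes between 72.1 TPM for Psmc5 and 20.6 TPM for Psmc2, and the non-ATPase genes between 45.1 TPM for Psmd4 and 9.21 TPM for Psmd3. The 3 lowest of the tested genes were Psma8 at 0.0853 ± 0.148 TPM, Psmd9 at 3.00 ± 0.580 TPM and Psme4 at 4.60 ± 0.575 TPM. The order within a group depended on the length used. With the length of the principal transcript, a setting added after seeing the data, Psmb7 stood at 46.3 TPM and Psma7 at 193 TPM in place of 65.6 TPM. Psme2b, Psme1 and Psme2 stayed the 3 highest with either length. With the principal transcript Psme1 stood at 251 ± 13.9 TPM and Psme2 at 215 ± 13.0 TPM, which differed by more than 2 SD.

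**Figure D3:**
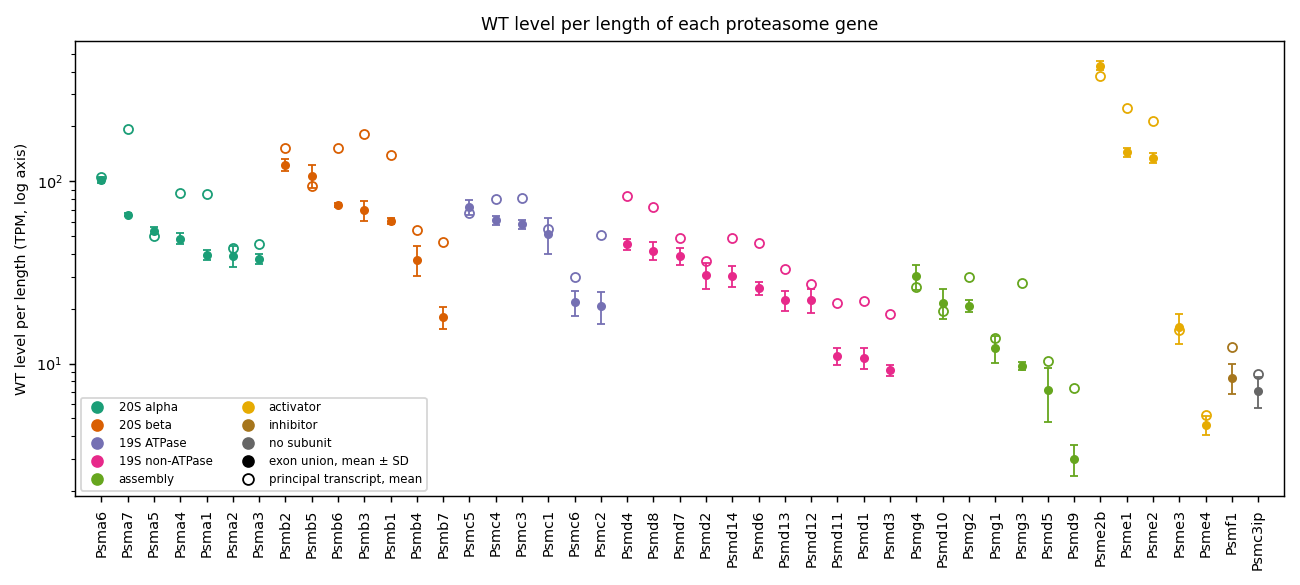
WT level per length of 45 tested genes on a log axis, grouped by role: filled points with bars give the mean ± SD (n = 3) over the exon union and open points the mean over the principal transcript. Psme2b, Psme1 and Psme2 are the highest with both lengths, and Psmd9 and Psme4 the lowest. Psma8, at 0.0853 TPM, is left out.

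The spread of the proteasome genes between libraries of a genotype was below that of all genes tested, which were mostly less abundant. The median WT level of the proteasome genes was 33.9 TPM, against 3.86 TPM over all genes tested. Over the genes with a mean of at least 10 CPM it was 10.6 TPM. The part of level in the lower spread was not tested. The SD of log2(CPM + 1) within a genotype, pooled over both, had a median of 0.162 over the 46 genes against 0.314 over all genes tested and 0.256 over the genes with a mean of at least 10 CPM. It was below the median of all genes for 41 of the 46 and below that of the more abundant genes for 38. The medians by role were 0.0971 for alpha genes, 0.139 for beta genes, 0.179 for ATPase genes, 0.197 for non-ATPase genes, 0.131 for activators and 0.297 for assembly factors. Psma3, at 0.006, had the smallest value of all 20475 genes tested, an extreme picked after its value was seen. Its SE in the edgeR fit was 0.0957, against a median of 0.116 for alpha genes. Psmd9, at 0.568, had the largest value of the 46.

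**Figure D4:**
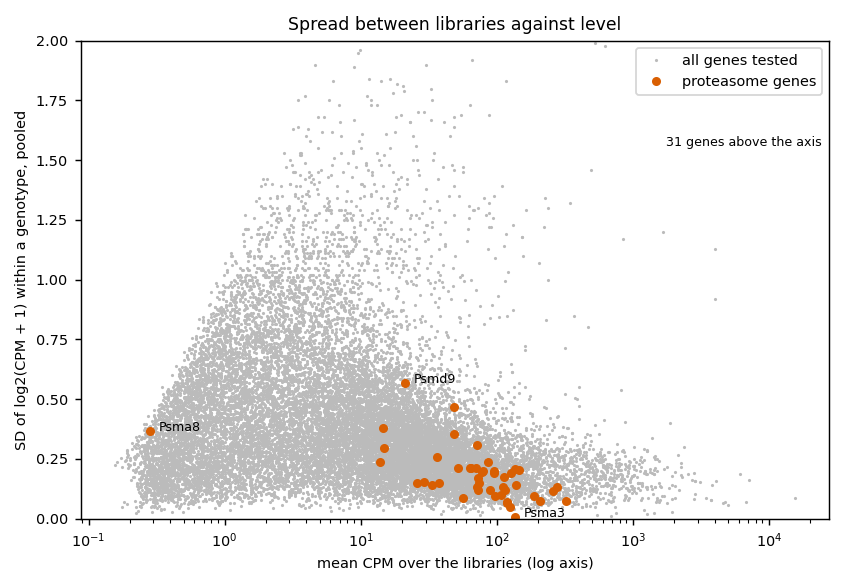
Pooled SD of log2(CPM + 1) within a genotype against mean CPM (log axis) for all genes tested (grey) and the 46 tested proteasome genes (orange). Most proteasome genes lie at high CPM and low SD, with Psma3 at the bottom and Psmd9 the highest of them. The SD axis ends at 2, and the few genes above it are counted in the panel.

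Libraries differed in how often they were extreme. WT replicate 3 was the highest library for 19 of the 46 genes, and the other libraries for 2 to 9. Its median log2 distance from the mean of each gene was 0.092, and those of the other libraries lay between -0.024 and 0.012. WT replicate 3 also had the lowest sums of B cell and myeloid markers, at 99.5 and 62.6 CPM. Its globin sum, 2740 CPM, was the highest of WT. The part of these cell markers in its higher proteasome values was not tested. Without WT replicate 3 the log2 ratio of the summed level, bKO over WT, was -0.01 in place of -0.05. Of the 46 genes 24 had the same direction within set A and within set B. The counts in this paragraph were not set beside those of all genes tested. Whether they differ from those of other genes was therefore not examined.

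**Figure D5:**
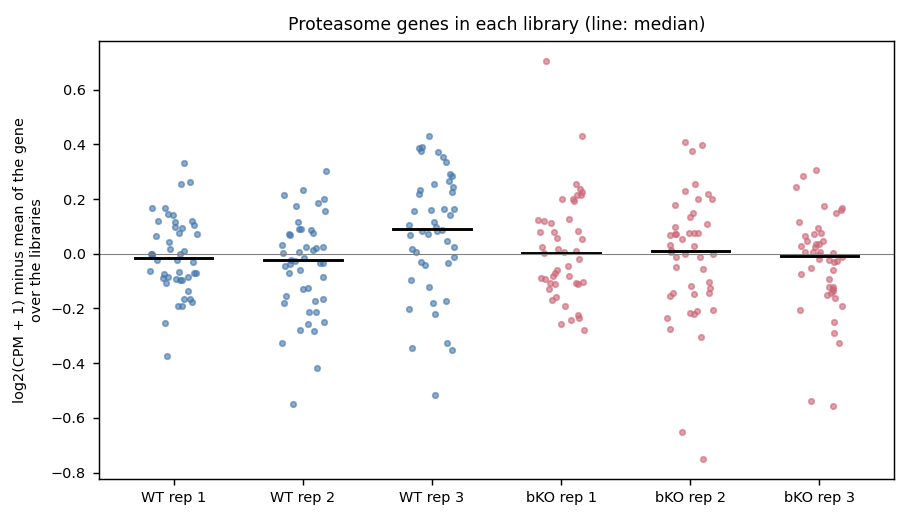
For each library, the difference of log2(CPM + 1) of each tested proteasome gene from the mean of that gene over the 6 libraries (points, WT blue and bKO red) and the median of these differences (line). The median of WT replicate 3 is 0.092 and those of the other libraries lie between -0.024 and 0.012.

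Other genes of the pathway were taken from a list of 37, of which 36 were matched and tested. By edgeR 0 passed after adjustment over all genes, and 0 had an unadjusted p under 0.05, where 2.88% of all genes did. Higher means in bKO were found for 16 and lower means for 20, with a median log2 difference of -0.03. Pomp, a chaperone of core assembly, stood at 99.1, 103 and 132 CPM in WT and at 104, 104 and 111 CPM in bKO. Nfe2l1 stood at 25.7, 28.2 and 32.5 CPM in WT and at 25.2, 14.1 and 32.5 CPM in bKO, where bKO replicate 2 was low (log2 difference -0.27, SE 0.309). The smallest p values belonged to Nfe2l3, a relative of Nfe2l1, to Ubqln4 and Ubqln1, shuttles that bring ubiquitinated proteins to the proteasome, and to the small Maf factor Maff. Of the 36 genes 1 was without overlap, where 7.76% of all genes were. It was Nfe2l3, at 0.318, 0.321 and 0.644 CPM in WT and 1.75, 0.800 and 1.02 CPM in bKO (log2 difference 1.47, SE 0.681, unadjusted p = 0.0680 by edgeR). Nfe2l3 had few counts, from 11 to 66 in a library. Ubqln4 stood at 20.4, 29.8 and 33.8 CPM in WT and at 13.9, 13.5 and 25.0 CPM in bKO, with overlap (log2 difference -0.68, SE 0.320). By DESeq2 the unadjusted p of Ubqln4 was 0.0453 (adjusted p = 0.956), where 3.67% of all genes were under 0.05 unadjusted. Maff was near the limit of detection, with 1.42, 0.263 and 0.372 CPM in WT and 0.0265, 0.286 and 0.0808 CPM in bKO. Ubqln1 overlapped, at 33.3, 25.0 and 37.4 CPM in WT and 43.4, 38.7 and 32.9 CPM in bKO.

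Set beside the promoter letters, the 15 genes with an ETS site had a median log2 difference of 0.08, with 9 of them higher in bKO. The 23 tested genes without one had a median of -0.10, with 7 higher. The 6 genes with a TGACNNNGC match had a median of 0.085, between -0.13 and 0.42, and the 32 without one a median of -0.042. For the GC box the order was reversed. The 22 genes with one had a median of -0.066, with 7 higher, and the 16 without one a median of 0.015, with 9 higher. The ETS genes include Psmc3ip, which is no subunit, and some genes hold more than 1 of the motifs. The ranges of genes with and without each motif overlapped. These values describe the genes, and no difference between such sets was tested.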

How the data were processed

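RNA of sorted Tregs was sequenced as single reads of 50 bases after SMARTer and NEBNext library preparation, per the labels' protocols. The authors deposited raw read counts per Ensembl gene, 1 table a library. The submitters' processing notes name STAR 2.3, featureCounts, bcl2fastq 2.19.0.316 and the build mm10. Annotation, strand setting and handling of reads with several alignments are not stated there, so overlapping and copied genes are uncertain. No molecular identifiers are named.

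Symbols and positions came from GENCODE M21 on GRCm38, the assembly mm10 names (53274 of 53379 identifiers matched). edgeR 4.0.16 in R 4.3.3 compared bKO with WT: filterByExpr, TMM, quasi-likelihood F tests (robust, two-sided) in a model of genotype alone, Benjamini-Hochberg adjustment and a threshold of 0.05. The fit was also run on simulated data with changes larger than those of the proteasome genes, so its power for small differences was not examined. Common dispersion was 0.260 (biological coefficient of variation 51.0%). No pair of libraries agreed within sampling noise (chi-square per degree of freedom 35.8 to 129). TPM were computed from counts and exon lengths with Python 3.11.15. Alternatives were DESeq2 1.42.0, limma-voom (limma 3.58.1), other scaling factors and filters, set and replicate terms, and each library left out.

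The members and lists were chosen with earlier results of these data known. Genes given in every library were Junb, the catalytic subunits, the activators and inhibitor, the 6 members with the smallest p, those without overlap, and the 3 highest and 3 lowest per length. From the pathway list they were Pomp, Nfe2l1 and the 4 with the smallest p. Psma3 and Psmd5 were added after their values were seen. Identity between proteins was not analysed here.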

Additional observations from a re-analysis of the deposited data

How the results depend on the processing

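The count of proteasome genes called after adjustment was 0 under every alternative run, as was that of the pathway list, while DESeq2 called 63 genes in all where edgeR called 0 (590 at an unadjusted p under 0.05) and gave Junb an adjusted p of 0.00417 (log2 difference -0.63). With 1 library left out, edgeR still called 0 genes in all, and the log2 difference of Junb lay between -0.692 and -0.569. Over these settings the median of the proteasome genes lay between -0.057 and -0.007 and the summed level between -0.083 and -0.013. The number with higher means lay between 16 and 22. The number without overlap lay between 8 and 15, where 14.6% to 19.4% of all genes were without overlap, as given above for each library left out. The number at an unadjusted p under 0.05 lay between 0 and 2, where 2.59% to 5.25% of all genes were at that level. The median WT level per length of the 46 tested genes was 33.9 TPM over exon unions and 47.5 TPM over principal transcripts, a setting added after seeing the data. The replicate number did not pair the libraries: deviations of same-numbered libraries correlated at -0.0948, 0.188 and 0.0354, and 2 of the 6 libraries were closest to their own number. As a replicate block this number gave a count at an unadjusted p under 0.05 of 0 in place of 3, while 712 of all genes (3.48%, against 2.88%) were at that level and 0 were called. Some small differences changed sign. Psmd9 was -0.011 with limma-voom, -0.017 with the replicate block and -0.285 with the set term, and between -0.356 and 0.398 with 1 library left out. Psmb7 was 0.028 with the set term and between -0.072 and 0.053 with 1 library left out. With 1 library left out Psmb5 lay between -0.235 and 0.046, Pomp between -0.148 and 0.065 and Nfe2l1 between -0.556 and 0.004. Depth limits chiefly Psma8 and Psmb11: the lowest count of any other proteasome gene in a library was 303, for Psmg4.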
